A study of Mus musculus with 4 samples.

Results

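Txnip, its arrestin-domain relatives and the thioredoxin system were followed in mouse fibroblasts that had received microvesicles, small membrane-bound particles shed by cells. The members were chosen by gene symbol as 9 genes, Txnip, Arrdc1, Arrdc2, Arrdc3, Arrdc4, Txn1, Txn2, Txnrd1 and Txnrd2. Of these, 8 were represented, by 11 probes, among the 16593 named genes on the array, and Arrdc3 had no probe listed under its symbol. The comparison of microvesicle with control fibroblasts was known when the members were chosen, so their values are given as a description without a test. The microvesicle group was 2 arrays of NIH-3T3, a fibroblast line derived from mouse embryos and able to divide without limit, after receiving microvesicles that had been purified from cardiomyocyte culture medium, and the control group was 2 arrays of NIH-3T3 cells labelled as control. Both groups were grown in Claycomb medium, a medium made for cardiomyocytes, at 37 degrees and 5% CO2. The labels give neither the exposure time, nor what the controls received, nor whether replicates were separate cultures, so p-values printed for other genes rest on a spread between samples that may be technical. All 4 arrays lay on 1 chip, the microvesicle arrays at positions G and H and the controls at A and B, so the effects of position and of group cannot be told apart.

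Thioredoxins are small proteins that reduce disulfide bonds in other proteins, and thioredoxin reductases recharge them with electrons from NADPH. Txnip, the thioredoxin-interacting protein, is an alpha-arrestin that binds reduced thioredoxin and blocks it, and it also draws glucose transporters off the cell surface. The other alpha-arrestins, Arrdc1 to Arrdc5, share its fold but are not known as thioredoxin inhibitors. Arrdc1 to Arrdc4 serve as adaptors that bring ubiquitin ligases of the Nedd4 family to membrane proteins. Transcription of Txnip and Arrdc4 follows glucose through the factor MondoA and its partner Mlx, which bind carbohydrate response elements, pairs of E-box-like sequences, in their promoters.

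Brightness, the mean over the beads of a probe, had a median of 39.9 and 40.2 in microvesicle replicates 1 and 2, against 41.1 and 41.2 in control replicates 1 and 2. The 95th percentile was 75.1 and 59.6 in microvesicle fibroblasts, against 76.2 and 115 in control fibroblasts, so the microvesicle replicate 2 array was dimmest at its bright end and the control replicate 2 array brightest. A probe was taken as detected where its detection p was under 0.05, and was tested where it was detected on both arrays of a group. Of 25697 probes, 3762 were tested and 284 (7.55%) passed an adjusted p of 0.05 in limma, 129 higher (3.43%) and 155 lower (4.12%) in microvesicle fibroblasts. Aligning the medians of the tested probes in place of quantile normalization gave 76 higher and 277 lower. Leaving out any 1 of the 4 arrays reduced the 284 to between 0 and 10 probes. Of 12 fibroblast markers on the array, 8 were tested and 0 passed in limma. An unadjusted p under 0.05 was reached by 3 of these 8, and by 932 of the 3762 tested probes. Col1a1 and Pdgfra were detected on no array. Of 14 cardiomyocyte markers, 10 were detected on no array, Myh7, Actc1, Nppa and Nppb among them, while Tnnc1 was detected on all 4 arrays, Des on both control arrays, Mb on 1 array of each group and Myh6 on 1 microvesicle array. The summed brightness of the cardiomyocyte probes was 563 and 578 in microvesicle fibroblasts, against 594 and 616 in control fibroblasts, and its part in the results below was not tested. In such bulk samples, fewer cells with a transcript and less transcript per cell cannot be told apart.

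Txnip was the member with a large difference between groups. The gene lies on chromosome 3 (GRCm38.p6, 96557957 to 96561857) and was read by probe ILMN_3112873, which was detected on all 4 arrays. Its brightness was 123 and 91.7 in microvesicle replicates 1 and 2, against 366 and 641 in control replicates 1 and 2. The standard error over the beads was 6.50 and 6.26 on the microvesicle arrays, from 30 and 41 beads, and 15.4 and 26.1 on the control arrays, from 44 and 46 beads. Both microvesicle arrays were dimmer than both control arrays before any scaling, and the bead errors cover the reading of an array, not the variation between samples. Background correction and quantile normalization gave log2 signals of 6.88 and 6.96 in microvesicle fibroblasts, against 8.66 and 8.40 in control fibroblasts. The means were 6.92 ± 0.06 in microvesicle and 8.53 ± 0.19 in control fibroblasts (SD, n = 2 each), a log2 change of -1.61 (SE 0.19) for microvesicles minus control. This equals a level 3.05-fold higher in the control fibroblasts. The 4 differences between single arrays of the groups ran between -1.78 and -1.43, so the groups did not overlap on the normalized scale either. With 2 arrays a group, exact permutation p-values start at 0.333, so this separation alone carries little weight. How many of all tested probes were separated in this way was not counted.

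The place of Txnip on the whole array shows how far it moved. On the microvesicle arrays it stood at the 97.4 to 97.5 percentile of brightness, against the 99.1 to 99.3 percentile on the control arrays. It thus remained among the brighter probes in both groups, and none of its values lay at background. Among the 3762 tested probes, 11 (0.292%) had a lower change than Txnip. It was 1 of the 2 tested members and the 1 that passed the threshold, a call that was not made with any 1 array removed, and nothing is read from this count because the contrast was known when the members were chosen. In the submitters' processed values Txnip stood at 104 and 115 in microvesicle fibroblasts, against 367 and 315 in control fibroblasts, with a control mean 3.12-fold that of the microvesicle fibroblasts. In raw brightness that ratio was 4.68. The submitters' own scaling and the quantile scaling thus gave nearly the same size, and the unscaled brightness gave a larger one.

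Arrdc4, the alpha-arrestin known to share the glucose-linked control of Txnip, was the other member detected on all 4 arrays. The gene lies on the reverse strand of chromosome 7 (GRCm38.p6, 68736994 to 68749238) and was read by probe ILMN_2648967. Its brightness was 105 and 92.4 in microvesicle fibroblasts, against 111 and 171 in control fibroblasts. The control replicate 2 array alone stood clearly above the other 3. After normalization the log2 signals were 6.56 and 6.97 in microvesicle fibroblasts, against 6.62 and 6.43 in control fibroblasts, so the groups overlapped. The means were 6.76 ± 0.30 in microvesicle and 6.53 ± 0.14 in control fibroblasts (SD, n = 2 each), a log2 change of 0.24 (SE 0.21) that reads as -0.55 when all-probe medians were aligned, -0.11 when tested-probe medians were aligned and -0.48 with neither background correction nor scaling. The direction of Arrdc4 was not settled by these arrays.

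**Figure D1:**
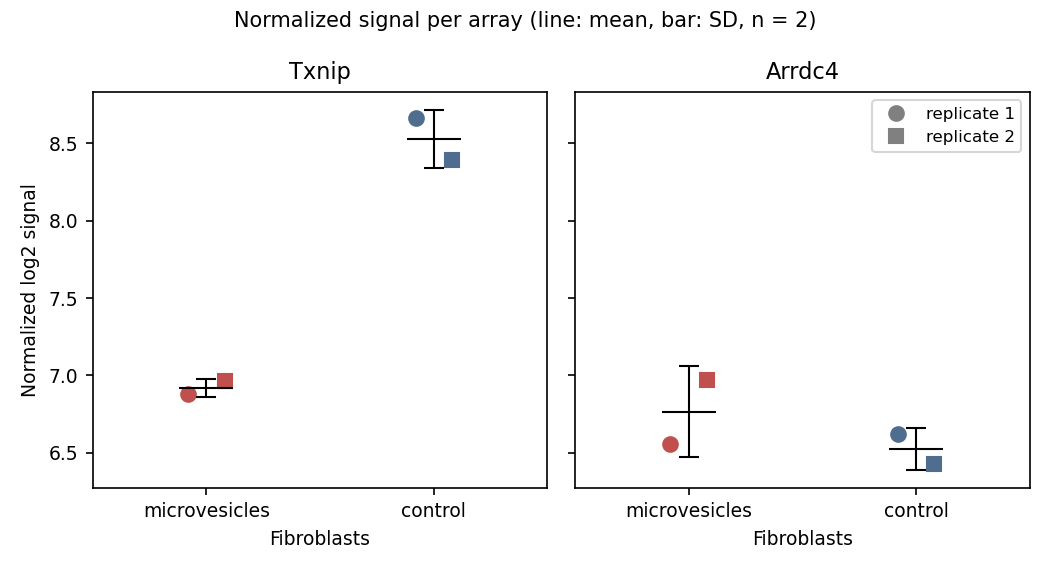
Normalized log2 signal of Txnip and Arrdc4 (vertical axis) on each array of microvesicle and control fibroblasts, with the mean (horizontal line) and SD (bar) of 2 arrays. The 2 microvesicle arrays lie at 6.88 and 6.96 for Txnip, below the control arrays at 8.66 and 8.40, whereas the groups overlap for Arrdc4.

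The size of both changes depended on the scaling between arrays. With all-probe medians aligned, the Txnip change was -2.44, a 5.45-fold higher level in control fibroblasts, while the median change over all tested probes lay at -0.39 in place of -0.06. Taken relative to the median of the tested probes, the Txnip change was -1.54 with quantile normalization, -2.05 with either median alignment and -1.89 with no correction or scaling. Under the same settings and relative to the same median, Arrdc4 stood at 0.30, -0.16 and -0.18. The Txnip change minus the Arrdc4 change was -1.85 with quantile normalization and -1.89 with either alignment. Median alignment shifts all probes of an array by the same amount. The equal values of both alignments, here and relative to the median, therefore follow from the method. This gap was -1.56 with an offset of 50 and -2.05 without microvesicle replicate 1, the ends of its range over the reported setting and 14 alternatives. Both changes come from the same 4 arrays and the members were known from them, so this gap is a description of these arrays. With 1 array removed the Txnip change lay between -1.69 and -1.48.

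**Figure D2:**
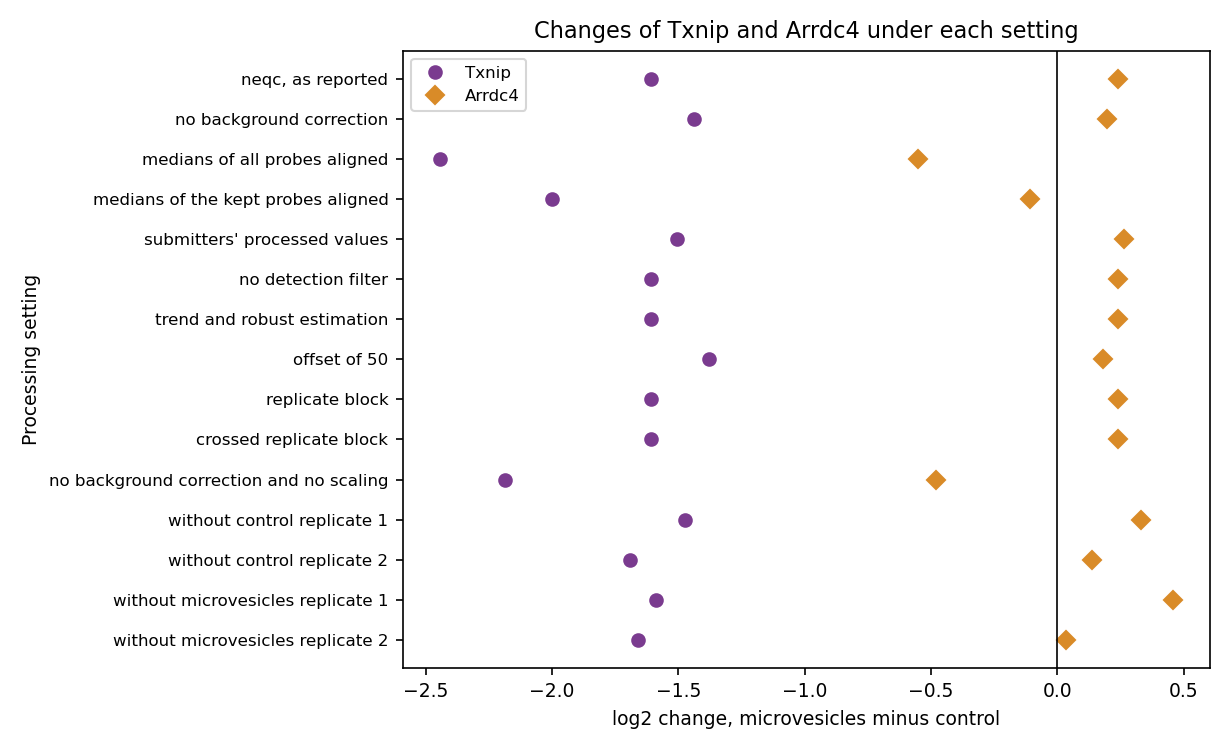
The log2 change, microvesicles minus control (horizontal axis), of Txnip (circles) and Arrdc4 (diamonds) under the reported setting and 14 alternatives (vertical axis). No detection filter, trend and robust estimation, and both replicate blocks repeat the reported value by design. Txnip lies between -2.44 and -1.38 in all rows, and Arrdc4 lies below 0 in 3 of them.

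The promoters of Txnip and Arrdc4 are shown because these were the members with a measured signal and because both genes are known targets of MondoA, whose sites are pairs of E-box-like sequences. The sequences are RefSeq's, in build GRCm38.p6, and cover the 250 bases before each transcription start, with every one of the 9 members having at least 1 start in that set. In the Txnip sequence (chr3:96557707-96557956, plus strand) the capitals mark CACGAG and CCAAT, the box bound by the factor NF-Y, which reads ATTGG on the opposite strand. In the Arrdc4 sequence (chr7:68749239-68749488, minus strand) they mark CACGTG, the E-box, and CCAAT.
Txnip: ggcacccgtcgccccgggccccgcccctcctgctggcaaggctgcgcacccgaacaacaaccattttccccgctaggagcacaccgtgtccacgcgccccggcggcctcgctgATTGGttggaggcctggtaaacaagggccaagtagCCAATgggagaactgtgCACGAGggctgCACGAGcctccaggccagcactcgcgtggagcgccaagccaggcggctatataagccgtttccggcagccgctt
Arrdc4: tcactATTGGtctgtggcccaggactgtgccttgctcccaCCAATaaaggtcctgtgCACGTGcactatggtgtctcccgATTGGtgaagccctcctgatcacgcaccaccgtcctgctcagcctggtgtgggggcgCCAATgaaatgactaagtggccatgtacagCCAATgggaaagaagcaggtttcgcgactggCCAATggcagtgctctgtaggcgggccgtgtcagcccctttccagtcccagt
The Txnip promoter held 2 copies of CACGAG with 5 bases between them, the first beginning 85 bases before the start and the second 74 bases before it. This pair was added to the search after the sequence had been read, so its share of 1 in 32851 promoter windows (0.00304%) carries no weight, and CACGAG alone stood in 5.37% of windows on either strand. The exact E-box CACGTG was not in the Txnip window, and the Arrdc4 window held 1 copy, beginning 193 bases before the start. It stood in 6.02% of all windows. A pair of exact E-boxes 5 bases apart was in 0 windows. The degenerate pattern searched for the carbohydrate response element, present in 0.0974% of windows, matched neither gene. This pattern did not cover the CACGAG pair of the Txnip window. The missing match therefore does not show that Txnip lacks a carbohydrate response element. CCAAT stood 2 times in the Txnip window and 6 times in the Arrdc4 window, while 33.8% of windows held at least 1 copy on either strand. The antioxidant response element core TGACNNNGC was in the Arrdc4 window, in 1 of the 3 Txnrd1 windows and in 10.2% of all windows. Among the other 7 members, CCAAT was in a window of Arrdc2, Arrdc3, Txn2 and Txnrd1, and CACGAG was in those of Arrdc1 and Arrdc2. A match shows only that the letters are there, and the arrays measured no binding.

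**Figure D3:**
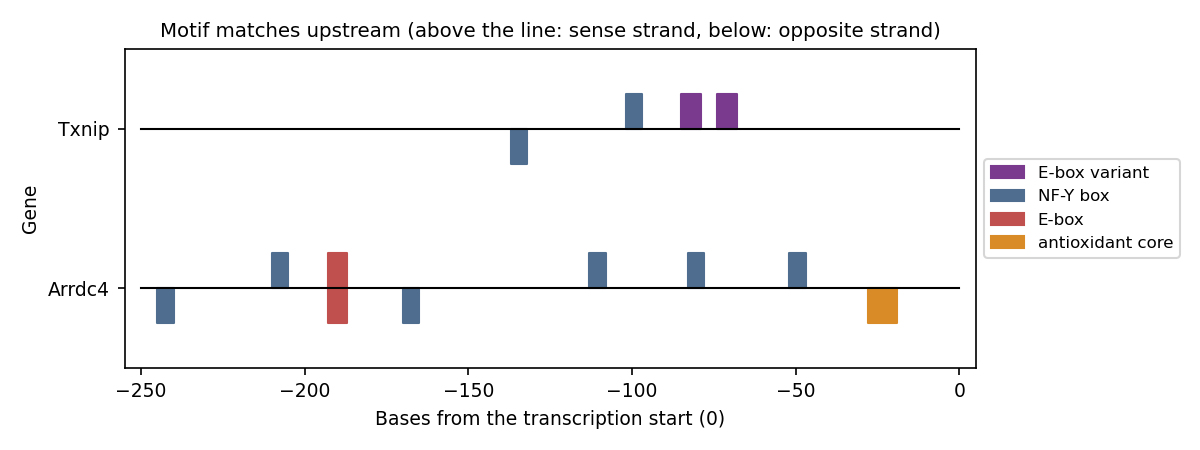
Matches to 4 motifs in the 250 bases before the transcription start of Txnip and Arrdc4, by distance from the start in bases (horizontal axis), drawn above the line for the sense strand and below it for the opposite strand. The E-box variant, CACGAG, stands 2 times in the Txnip window, and the NF-Y box stands 2 times in the Txnip window and 6 times in the Arrdc4 window.

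The other alpha-arrestins gave little or no signal. Arrdc1, which in human cells drives budding of small vesicles from the plasma membrane, had a brightness of 44.0 and 43.6 in microvesicle fibroblasts, against 43.2 and 51.9 in control fibroblasts. It was detected on the control replicate 2 array alone (detection p 0.00376). Arrdc2 had a brightness of 38.6 and 35.1 in microvesicle fibroblasts, against 40.2 and 37.0 in control fibroblasts, and was detected on no array. Its values lay at or below the median probe of each array, where the signal of a transcript cannot be told apart from background.

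The thioredoxins themselves could not be followed on these arrays. Txn1, the cytosolic thioredoxin that Txnip binds, had 3 probes, and 2 of them were detected on no array although they were averaged over 95 to 150 beads, against a median of 40 to 41 beads for all probes. The first of these read 40.0 and 39.8 in microvesicle fibroblasts, against 40.3 and 40.5 in control fibroblasts. The second read 36.7 and 39.9 in microvesicle fibroblasts, against 37.9 and 37.0 in control fibroblasts. All 8 values lay near the array medians, and differences there were too small to be told apart from background. The remaining Txn1 probe read 38.6 and 43.3 in microvesicle fibroblasts, against 44.5 and 46.5 in control fibroblasts, and was detected on the control replicate 2 array alone (detection p 0.0401). Txn2, the mitochondrial thioredoxin, read 38.9 and 31.6 in microvesicle fibroblasts, against 34.2 and 40.6 in control fibroblasts, and was detected on no array.

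Txnrd1, the cytosolic thioredoxin reductase, was the reductase with any detected value. Its brightness was 45.8 and 40.2 in microvesicle fibroblasts, against 43.1 and 53.1 in control fibroblasts, with detection on microvesicle replicate 1 (detection p 0.0175) and control replicate 2 (detection p 0.00376). The groups overlapped. The 2 probes of Txnrd2, the mitochondrial reductase, lay between 33.0 and 39.0 in microvesicle fibroblasts, against 34.5 and 41.0 in control fibroblasts, and were detected on no array. In all, 6 of the 8 represented members had no tested probe, their 9 probes spanned 31.6 to 53.1 in brightness, and 4 of their 36 values were detected. Their log2 changes, between -0.10 and 0.04, carry no more than background. For these members a difference was not detectable at this brightness, which does not show that they were unaltered or absent.

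**Figure D4:**
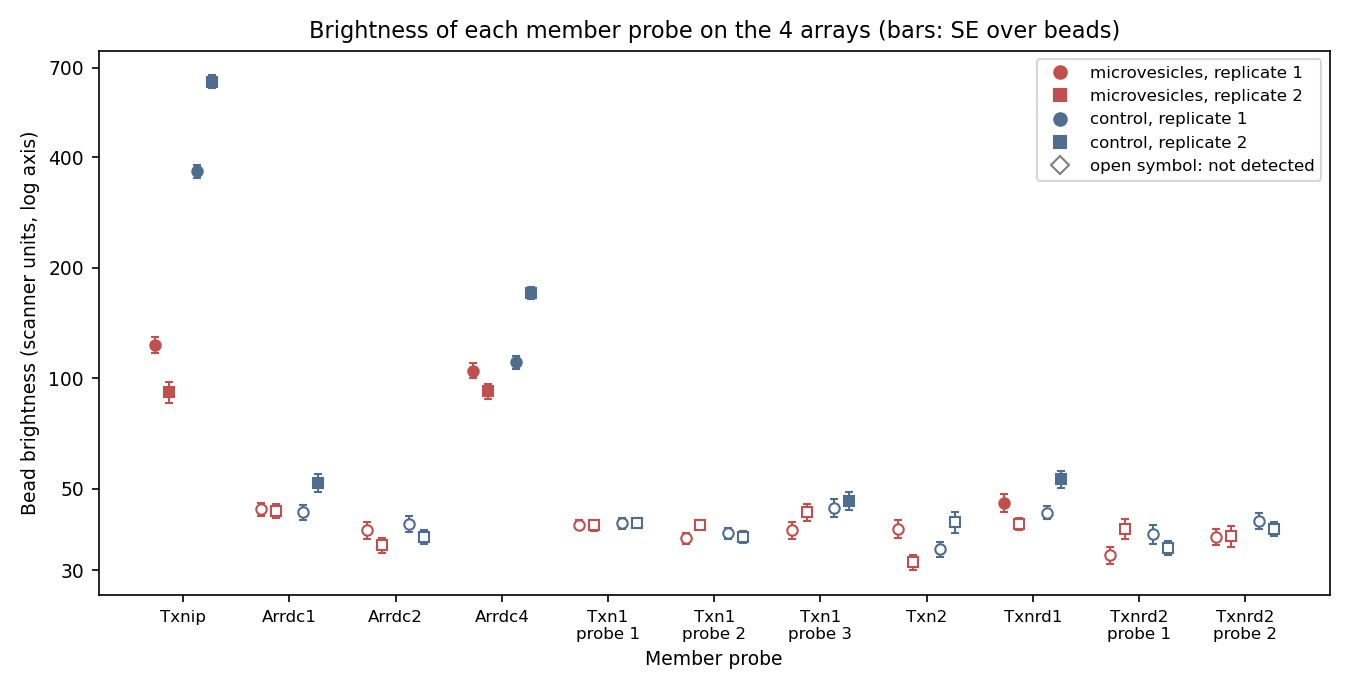
Brightness in scanner units (vertical log axis) of the 11 member probes (horizontal axis) on the microvesicle arrays (red, left) and control arrays (blue, right), with the standard error over beads as bars and open symbols where the probe was not detected. Txnip reads 123 and 91.7 on the microvesicle arrays, against 366 and 641 on the control arrays, and 9 probes lie between 31.6 and 53.1.

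The genes around the members were read from 5 lists with 58 genes, of which 50 were on the array and 13 were tested. Of these 13, 6 had an unadjusted p under 0.05 in limma, against 932 of all 3762 tested probes, and 0 passed at an adjusted p of 0.05. The count was 0 to 2 in all alternatives except limma with trend and robust estimation, where 5 passed. The share of all tested probes that passed was 7.55%. The median log2 change of the 13 genes, each read by its brightest probe, was -0.18, beside -0.06 over all tested probes. Of the 13 genes, 10 lay below 0 and 3 above it, and the share of all tested probes below 0 was not counted. Txnl4a counts as below 0 and as not passed by its brightest probe alone. Its other tested probes stood at 0.62, 0.65 and 1.08, and the last passed.

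Enzymes listed here as thioredoxin clients, that is, as recharged by thioredoxin, had 12 genes on the array. Of these, 6 were tested, with a median log2 change of 0.14. The list does not show that thioredoxin serves each of them, Prdx4 of the endoplasmic reticulum included. Prdx4, the peroxiredoxin of the endoplasmic reticulum, had log2 signals of 4.71 and 4.36 in microvesicle fibroblasts, against 5.65 and 5.03 in control fibroblasts. Its log2 change of -0.81 (SE 0.25) missed the threshold in limma (adjusted p = 0.0916). It was detected on 1 of the 2 microvesicle arrays and both control arrays, and it passed with a replicate block (adjusted p = 0.0419) and with a robust, trended variance (adjusted p = 0.039). The change of Prdx4 was -0.39 with an offset of 50, -0.47 without background correction, and -0.53 either with tested-probe medians aligned or without control replicate 1. Prdx2, a cytosolic peroxiredoxin, had log2 signals of 9.94 and 9.91 in microvesicle fibroblasts, against 9.52 and 9.04 in control fibroblasts. Its log2 change of 0.65 (SE 0.21) missed the threshold in limma (adjusted p = 0.108) and turned to -0.14 with all-probe medians aligned and -0.17 with no correction or scaling. It was 0.31 with tested-probe medians aligned and 0.39 without control replicate 2. Prdx3 of the mitochondrion stood at 0.39 and Rrm1, the large subunit of ribonucleotide reductase, at 0.46. The methionine sulfoxide reductase Msrb2 stood at -0.11 and was detected on 1 of the 2 microvesicle arrays. Prdx1 was detected on no microvesicle array, and its log2 change of -0.45 (SE 0.17) did not pass (adjusted p = 0.16 in limma). With its microvesicle readings raised to the lowest detected signal, its mean was 1.19-fold lower there, a bound that leaves out the spread between arrays.

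Among regulators and partners of Txnip, 11 genes were on the array and 5 were tested. All 5 had a log2 change below 0 at their brightest probe, with a median of -0.25. Wwp2 had 1 other tested probe, whose change was not read. Nedd4l, a ubiquitin ligase of the family that alpha-arrestins bind, had log2 signals of 5.08 and 5.82 in microvesicle fibroblasts, against 6.52 and 6.35 in control fibroblasts. Both microvesicle arrays lay below both control arrays, which alone carries little weight with 2 arrays a group. Its log2 change of -0.99 (SE 0.26) missed the threshold in limma (adjusted p = 0.0587) and passed in 5 of 14 alternatives, with adjusted p between 0.00235 and 0.482 over them, the replicate block among those that passed (adjusted p = 0.033). The change of Nedd4l was -0.64 without microvesicle replicate 1, -0.62 with an offset of 50 and -1.62 with all-probe medians aligned. Nedd4, the ligase that names this family, had log2 signals of 6.61 and 6.07 in microvesicle fibroblasts, against 6.86 and 7.68 in control fibroblasts. Its log2 change of -0.93 (SE 0.30) missed the threshold in limma (adjusted p = 0.108) and passed in 3 of 14 alternatives, with adjusted p between 0.0012 and 0.672 over them. The change of Nedd4 was -0.47 without control replicate 2, -1.40 with no correction or scaling and -1.68 with all-probe medians aligned. The others were the ligase Wwp2 at -0.16, Mlxip, which encodes MondoA, at -0.18, and Ddit4, an inhibitor of the kinase complex mTORC1 that binds Txnip, at -0.25. Mlxip and Ddit4 were each detected on 1 of the 2 microvesicle arrays.

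Thioredoxin-fold relatives had 13 genes on the array, and 2 were tested. Txndc5, a disulfide isomerase of the endoplasmic reticulum, had log2 signals of 7.11 and 6.84 in microvesicle fibroblasts, against 7.27 and 7.19 in control fibroblasts, a log2 change of -0.26 (SE 0.19, adjusted p = 0.424 in limma). The change of Txndc5 depended on scaling, at -1.11 with all-probe medians aligned, -0.67 with tested-probe medians aligned and -0.96 with no correction or scaling, and on the arrays used, at -0.12 without microvesicle replicate 2 and -0.40 without microvesicle replicate 1. Txnl4a, a subunit of the spliceosome, had 4 tested probes that disagreed. Its brightest probe changed by -0.14 (SE 0.22, adjusted p = 0.703 in limma), whereas the others stood at 0.62, 0.65 and 1.08, of which the last passed (SE 0.18, adjusted p = 0.0136). The brightest probe of Txnl4a stood at -1.06 and -0.61 with all-probe and tested-probe medians aligned and -0.998 with no correction or scaling, at -0.33 without control replicate 1 and -0.35 without microvesicle replicate 1, and above 0 without control replicate 2 (0.04) or microvesicle replicate 2 (0.05). The 7 glutaredoxin and glutathione genes and the 7 other arrestin-fold genes on the array had no tested probe. Of the beta-arrestins, Arrb1 was detected on 1 microvesicle array and no control array, and Arrb2 on 1 control array and no microvesicle array. Arrdc5 had no probe listed under its symbol.

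**Figure D5:**
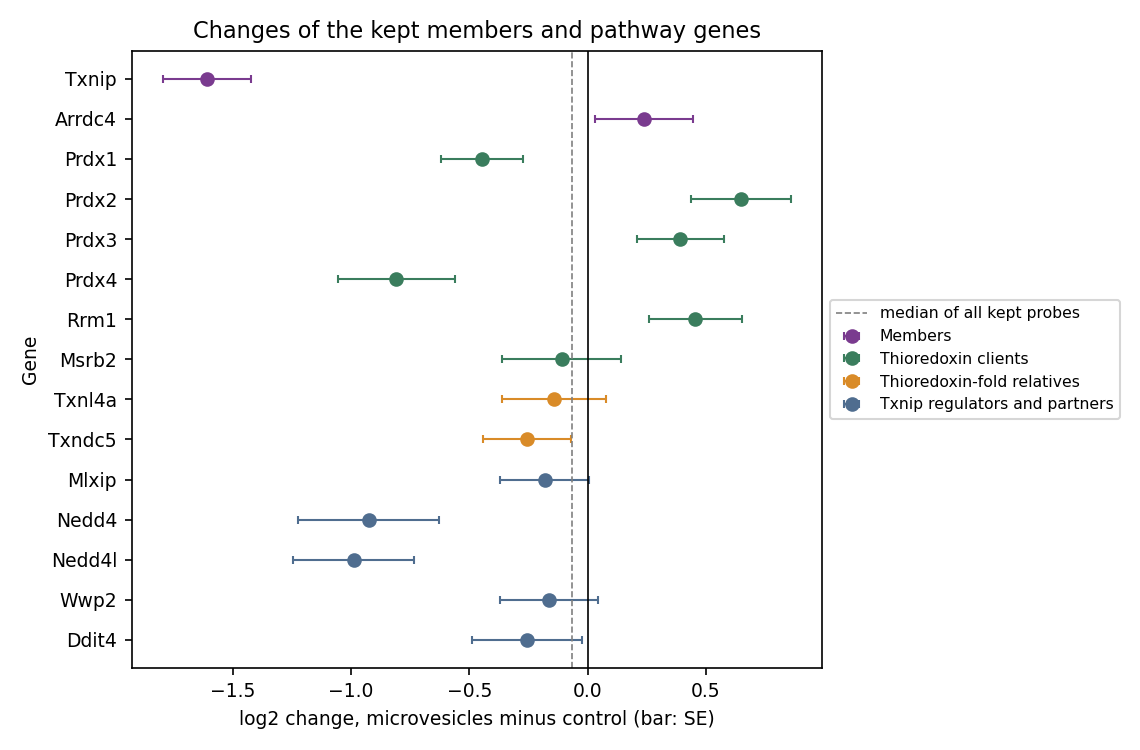
The log2 change, microvesicles minus control (horizontal axis), with its SE as a bar, of the 2 tested members and 13 tested pathway genes (vertical axis), coloured by list. Txnip stands at -1.61, apart from the nearest pathway genes Nedd4l at -0.99 and Nedd4 at -0.93, and the dashed line is the median of all tested probes at -0.06.

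The genes whose pattern over the 4 arrays was most like that of Txnip were Tle6, C4b and Tiam2. They lie outside the pathway lists, but nothing is read from this. Only 13 pathway genes and Arrdc4 were among the probes compared, so neighbours from outside were likely in advance. Likeness was the Euclidean distance between log2 signals centred on each probe's mean, over 3534 other tested probes with a gene symbol, where the median distance was 1.60. Tle6, a transcriptional corepressor relative, lay at a distance of 0.163 with log2 signals of 6.31 and 6.28 in microvesicle fibroblasts, against 8.18 and 7.73 in control fibroblasts. C4b, a complement component, lay at 0.174 with log2 signals of 5.23 and 5.49 in microvesicle fibroblasts, against 7.03 and 6.94 in control fibroblasts. Tiam2, an exchange factor for the small GTPase Rac, lay at 0.223 with log2 signals of 4.33 and 4.33 in microvesicle fibroblasts, against 5.81 and 5.73 in control fibroblasts. Tiam2 was detected on no microvesicle array, so it was at least 2.48-fold lower there, and its distance and rank rest on background readings in that group. These neighbours follow from the same 4 values and group order as the Txnip change. Arrdc4 lay at a distance of 1.86, with 2602 probes nearer to Txnip.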

How the data were processed

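Total RNA of 4 samples was amplified, and the Cy3-labelled product was read on Illumina bead arrays. The submitters' processing notes name BeadStudio 3.3. The deposited intensity values are mean bead brightness per probe without background subtraction or scaling, and each deposited detection p-value compares the probe with the negative controls. The authors' processed intensity values are background-subtracted and on a linear scale, with the scaling method not given in the sources used here, and served as an alternative. Bead numbers and bead standard errors describe the reading of an array.

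In R 4.3.3 with limma 3.58.1, neqc corrected the background with an offset of 16, normalized by quantiles and took log2, which understates changes of dim probes. A probe was kept if either group detected it (p under 0.05) on both of its arrays. The test was two-sided, from lmFit and eBayes on group alone, and p-values were adjusted by Benjamini-Hochberg over 3762 probes. The fit was tested on simulated data. With 2 arrays a group, exact permutation p-values start at 0.333, so none was used. Each listed gene was read by its brightest probe. A probe detected on no array of a group has a bound, the bright group's mean against the higher of the lowest detected signal and its own signal per array. Gene symbols came from the platform annotation and RefSeq, in which Entrez identifiers of 23962 probes were found. The members, lists, tests and named genes (per list those that passed or the 2 largest changes, and the 3 nearest neighbours of Txnip) were chosen with earlier results of these data known. Txnl4a's other probes, and listed genes beyond these, were named after their values were seen. The fibroblast, cardiomyocyte, macrophage and endothelial markers were read the same way. The 3 macrophage genes were detected on no array, and 0 of the 5 endothelial genes were tested. Alternatives were no background correction, median alignment, the processed values, no filter, trend and robust variance, an offset of 50, a replicate block, removal of each array and a threshold of 0.01, and after the data were seen a crossed block and no correction or scaling. Precision is limited by having 2 arrays a group.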

Additional observations from a re-analysis of the deposited data

How the results depend on the processing

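The Txnip change of -1.61 stayed below 0 in all 14 alternatives, although dropping the filter, the trended variance and the blocks cannot move it. It was -1.44 without background correction, -2.44 with all-probe medians aligned, -2.00 with tested-probe medians aligned, -1.38 with an offset of 50 and -2.19 with no correction or scaling, and -1.69 to -1.48 without 1 array. The 284 probes called became 0 with all-probe medians aligned (398 at an unadjusted p under 0.05), 29 with no detection filter, 593 with trend and robust estimation, 67 at an adjusted p under 0.01, 0 with no correction or scaling (403 unadjusted), and 0 to 10 without 1 array. Where an array was removed, the lone array of its group was assumed to vary like the other group. The 0 pathway genes called became 2 with tested-probe medians aligned, 1 with the processed values and 5 with trend and robust estimation. The labels do not pair the replicate numbers, and deviations of same-numbered arrays correlated at -0.133. A replicate block gave 313 probes and 2 pathway genes. The crossed replicate block, added after the data were seen, gave 396 probes and 2 pathway genes. Removing arrays leaves fewer samples and dropping the filter adds dim probes to the adjustment, but the causes of these differences were not tested. Signal over background limits the other members, of which 6 had no tested probe.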
